A study of Drosophila melanogaster with 6 samples.

Results

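The yolk and storage protein genes of Drosophila were read here in adult males that overexpressed a long noncoding RNA and in control males, both infected with E. coli. They are the yolk protein genes Yp1, Yp2 and Yp3, the larval serum protein genes Lsp1alpha, Lsp1beta, Lsp1gamma and Lsp2, and the fat body protein genes Fbp1 and Fbp2. These 9 genes were taken by name from a table of 15656 genes. They were chosen by family, and selected on the difference of their values between the genotypes in these same 6 libraries, so the differences between the genotypes are given for them as a description. No p-value is given for any of them. Counts of how many passed the threshold applied to all genes, under each processing, are a description too. Flies of the genotype Gal80ts; Tub>lncRNA-CR33942, called overexpressing flies, gave 3 libraries. Gal80ts; Tub-Gal4/P{CaryP}attP40 flies, called control flies, gave another 3. All were males of 3 to 5 d, collected 12 h after infection. Both genotypes carried Gal4 under the tubulin promoter, which is active throughout the body, and Gal80ts, a heat-sensitive repressor of Gal4. Both were reared at 18 °C and spent more than 24 h at 29 °C, which induces expression. RNA was measured in bulk by poly(A) sequencing. The control flies carried the docking site attP40 without the lncRNA transgene, and the sources used here do not give the number of flies behind a library.

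Yolk proteins are made by the fat body, the insect counterpart of liver and adipose tissue, and by the follicle cells of the ovary, and are taken up by the growing oocyte. Their genes are under the sex-determination pathway: the female form of the transcription factor Doublesex activates Yp1 and Yp2 in the fat body, and the male form represses them. Larval serum proteins are hexamerins, large proteins of 6 subunits that the larval fat body secretes into the blood as a store of amino acids for metamorphosis. Fbp1 encodes the fat body receptor that takes the larval serum proteins back up before pupation, and is a classic target of the moulting hormone ecdysone. Fbp2 encodes a fat body protein related in sequence to alcohol dehydrogenase. Some of the larval fat body cells persist into the young adult before they are lost, and the adult fat body then takes their place.

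Library totals lay between 16894595 and 19423287 reads. lncRNA-CR33942, listed under the older symbol pncr016:2R, had 4636 ± 244 normalized counts in overexpressing flies and 197 ± 17.1 in control flies (SD, n = 3 each), which matched the genotype labels. A normalized count is a gene's reads divided by the size factor of its library. FPKM, which also divides by gene length, is used below wherever different genes are compared. Genes entered the test from a mean of 0.5 FPKM upward, 13196 in all. For them limma at an adjusted p under 0.05 called 420 genes up and 691 down in overexpressing flies. Their median log2 fold change was 0.0059. Nothing in the labels says whether the libraries of a genotype came from separate crosses, so p-values cover no spread beyond these libraries. In limma each gene's spread is drawn toward that of genes of like abundance, and every SE given is built from this combined spread. For the yolk and storage protein genes tested, which varied more than most genes, this SE is smaller than their own spread would give.

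All 7 members with enough reads to enter that comparison had a lower mean in overexpressing flies than in control flies, by 2.01-fold for Lsp1beta to 5.14-fold for Fbp2 on the log2(normalized count + 1) scale. The other members, Yp1 and Yp2, had at most 7 reads in any library. The table's positions of all 9 genes, given in dm6, are those of the reference annotation. In whole flies, fewer fat body cells and less RNA per fat body cell cannot be told apart.

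**Figure D1:**
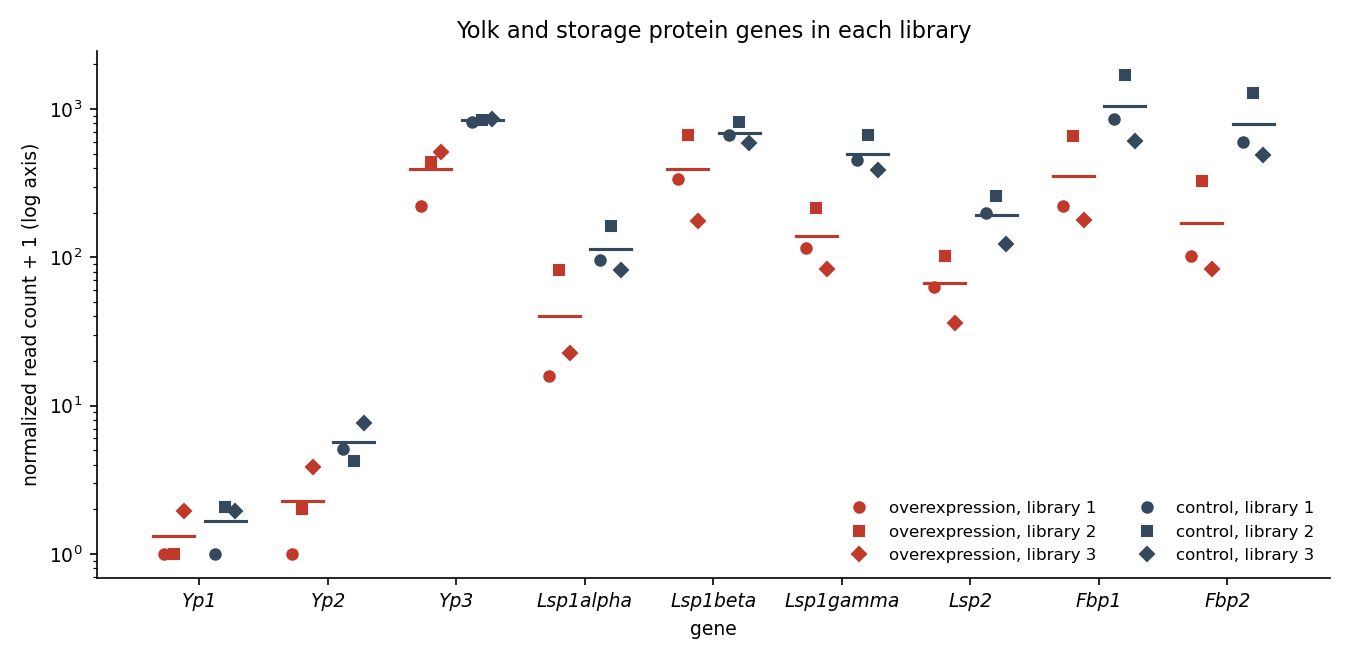
Normalized counts (log axis) of the 9 members, with overexpression libraries left of control libraries for each gene. Points are single libraries and bars are group means. Yp1 and Yp2 are shown but were not tested. The groups overlap for Lsp1beta, Fbp1 and Yp1, and for the other genes every overexpression library lies below every control library.

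Yp3, which encodes yolk protein 3 (X:13759546-13761547, + strand), was the only yolk protein gene with substantial reads in these males. It had 220, 436 and 515 normalized counts in overexpression libraries 1, 2 and 3, against 822, 845 and 856 in control libraries 1, 2 and 3. The control libraries lay within 1.04-fold of each other, whereas the overexpression libraries spanned 2.34-fold and all lay below them. The means were 391 ± 153 in overexpressing flies and 841 ± 17.5 in control flies (SD, n = 3 each), and the log2 fold change was -1.19 (SE 0.22). Per length, Yp3 stood at 11.8 ± 4.61 FPKM in overexpressing flies and 24.7 ± 0.342 FPKM in control flies. Library 1 was the lowest of the overexpression libraries and lay farthest from their mean.

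Yp2 and Yp1, the genes of yolk proteins 2 and 1, lie back to back on the X chromosome (Yp2 at X:10050951-10052636 on the - strand, Yp1 at X:10053811-10055498 on the + strand). Yp2 had 0, 1 and 3 reads in the overexpression libraries, against 4, 3 and 7 in the control libraries. The 4 reads in all in overexpressing flies and 14 in control flies gave a ratio of 0.286 per unit of depth. So few reads fix this ratio only loosely, and no test is made of it. Normalized for depth, its groups did not overlap (0, 1.02 and 2.83 in overexpressing flies, against 4.06, 3.22 and 6.64 in control flies). Yp1 had 0, 0 and 1 reads in the overexpression libraries and 0, 1 and 1 in the control libraries. Both totals of Yp1 were under a floor of 3 reads per group, so no fold is given, and a difference in Yp1 was not detectable at this depth. Both genes were below the filter on low values and were not tested. Yp3 therefore carried nearly all reads of the family: the 3 yolk genes together took 0.00221 ± 0.00087% of all reads in overexpressing flies and 0.00464 ± 0.00007% in control flies (SD, n = 3 each).

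The larval serum protein 1 subunits are encoded by genes on 3 different chromosomes, and their levels differed widely. Lsp1beta (2L:898500-901316, + strand), which encodes the beta subunit, was the most abundant. It had 338, 670 and 174 normalized counts in the overexpression libraries, against 670, 820 and 586 in the control libraries. Overexpression library 2 lay within the range of the controls and the other 2 below it, so the groups overlapped. The log2 fold change was -1.01 (SE 0.34), the smallest among the 7 members.

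Lsp1gamma (3L:66430-68995, + strand), which encodes the gamma subunit, had 115, 215 and 83.0 normalized counts in the overexpression libraries, against 449, 663 and 385 in the control libraries. Even the highest overexpression library lay well below the lowest control library. The means were 138 ± 68.6 in overexpressing flies and 499 ± 146 in control flies (SD, n = 3 each), and the log2 fold change was -1.93 (SE 0.28). Among the storage protein genes this was the difference with the smallest standard error.

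Lsp1alpha (X:12490291-12492982, + strand), which encodes the alpha subunit, was the rarest of the larval serum protein transcripts. It had 14.9, 81.4 and 21.7 normalized counts in the overexpression libraries, from 15, 80 and 23 reads, against 94.5, 162 and 81.5 in the control libraries, from 93, 151 and 86 reads. Overexpression library 2 (81.35) and control library 3 (81.53) nearly met, so the absence of overlap here rests on less than 1 read. The log2 fold change was -1.81 (SE 0.48), the largest standard error among the 7 members.

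Lsp2 (3L:12129393-12131869, + strand) encodes the other hexamer, larval serum protein 2. It had 62.6, 102 and 34.9 normalized counts in the overexpression libraries, against 198, 259 and 122 in the control libraries. The groups did not overlap, but overexpression library 2 and control library 3 were closer to each other than either was to its own group's mean. The log2 fold change was -1.59 (SE 0.33). The antisense gene CR11538 covers 2096 bases of Lsp2, and with no statement that reads were counted by strand the reads of the pair cannot be told apart. CR11538 itself was given 4.28 ± 1.62 normalized counts in overexpressing flies and 4.28 ± 2.92 in control flies, few beside those of Lsp2. How reads in the shared bases were assigned was not stated. These counts therefore do not show how far the overlap affects the counts and FPKM of Lsp2.

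Fbp2 (2L:9426784-9427917, + strand) showed the largest difference. It had 100.3, 327 and 83.0 normalized counts in the overexpression libraries, against 601, 1285 and 488 in the control libraries, with no overlap. The means were 170 ± 136 in overexpressing flies and 792 ± 431 in control flies (SD, n = 3 each), and the log2 fold change was -2.36 (SE 0.43). By that value Fbp2 was number 8 from the bottom among the 13196 genes. The last 48 bases of Fbp2 are shared with CG42847, a gene of the same strand, which had 577 ± 20.9 normalized counts in overexpressing flies and 554 ± 47.5 in control flies (log2 fold change 0.06, adjusted p = 0.693 from limma).

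Fbp1 (3L:14094589-14098053, - strand), the gene of the receptor, had 221, 662 and 177 normalized counts in the overexpression libraries, against 851, 1703 and 605 in the control libraries. Overexpression library 2 lay above control library 3, so the groups overlapped. The log2 fold change was -1.69 (SE 0.42). The fat body protein pair took 0.00296 ± 0.00229% of all reads in overexpressing flies and 0.0101 ± 0.00557% in control flies, and the 4 larval serum protein genes 0.0036 ± 0.0022% in overexpressing flies and 0.00822 ± 0.00209% in control flies (SD, n = 3 each).

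Counted over the members, 6 of the 7 that entered the comparison (all but Lsp1beta) were called down and 0 up by limma, with 0 higher at an unadjusted p under 0.05 and 0 called up by edgeR or DESeq2, where 5.24% of all genes tested were called down and 3.18% up, or 8.42% in either direction. The groups did not overlap, with overexpressing flies lower, for 5 of the 7, where this was so for 14.4% of all genes tested. Since these genes were chosen with these values known, nothing is read from the counts. The median log2 fold change of the 7 was -1.69. With the spread of each gene not tied to its abundance, limma called 0 members at the adjusted threshold, although 6 had an unadjusted p under 0.05. On recovered reads edgeR called 5 members down, where it called 674 of all genes down. DESeq2 called 4 members down, where it called 631 of all genes down. Without control replicate 1, 3 members were called by limma, and with replicate 2 left out of both groups, 7 were. In these settings 328 and 649 of all 13196 genes were called down.

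Per length, the order of the genes differed between the genotypes in the places of Fbp2 and Yp3 and in those of Fbp1 and Lsp1beta. In overexpressing flies Yp3 stood first at 11.8 ± 4.61 FPKM, followed by Fbp2 at 8.95 ± 7.18, Lsp1beta at 8.09 ± 5.21, Fbp1 at 5.76 ± 4.37, Lsp1gamma at 3.11 ± 1.55, Lsp2 at 1.51 ± 0.766 and Lsp1alpha at 0.846 ± 0.788 FPKM (SD, n = 3). Each gene in that order overlapped in range with the next. In control flies Fbp2 stood first at 40.5 ± 22.2 FPKM, followed by Yp3 at 24.7 ± 0.342, Fbp1 at 16.7 ± 9.21, Lsp1beta at 13.8 ± 2.45, Lsp1gamma at 10.96 ± 3.25, Lsp2 at 4.29 ± 1.54 and Lsp1alpha at 2.36 ± 0.917 FPKM (SD, n = 3). There neighbours in the order also overlapped, except that every library had Lsp1gamma above the range of Lsp2. Yp2 and Yp1 came last in both genotypes, at 0.0447 ± 0.05 and 0.011 ± 0.0191 FPKM in overexpressing flies and 0.157 ± 0.0587 and 0.0229 ± 0.02 FPKM in control flies.

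The storage protein genes varied far more between libraries of 1 genotype than most genes did, and they varied together. Their within-group SD on the log2 scale ran from 0.566 for Lsp1gamma to 0.956 for Lsp1alpha, and that of Yp3 was 0.458, while the median over all genes tested was 0.114. Library 2 was the highest of its group in both genotypes for 6 of 6 storage protein genes, which was so for 12.7% of all genes tested. Library 3 was the lowest control library for 6 of 6, and the lowest overexpression library for 5 of 6, where the exception was Lsp1alpha. The share of all genes with library 3 lowest was not computed, and genes that vary together are not separate observations. Yp3 did not share the library order of the storage protein genes. Its lowest library was library 1 and its highest library 3 in both genotypes, and in control flies its libraries barely differed while Fbp1 spanned from 605 to 1703 normalized counts.

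**Figure D2:**
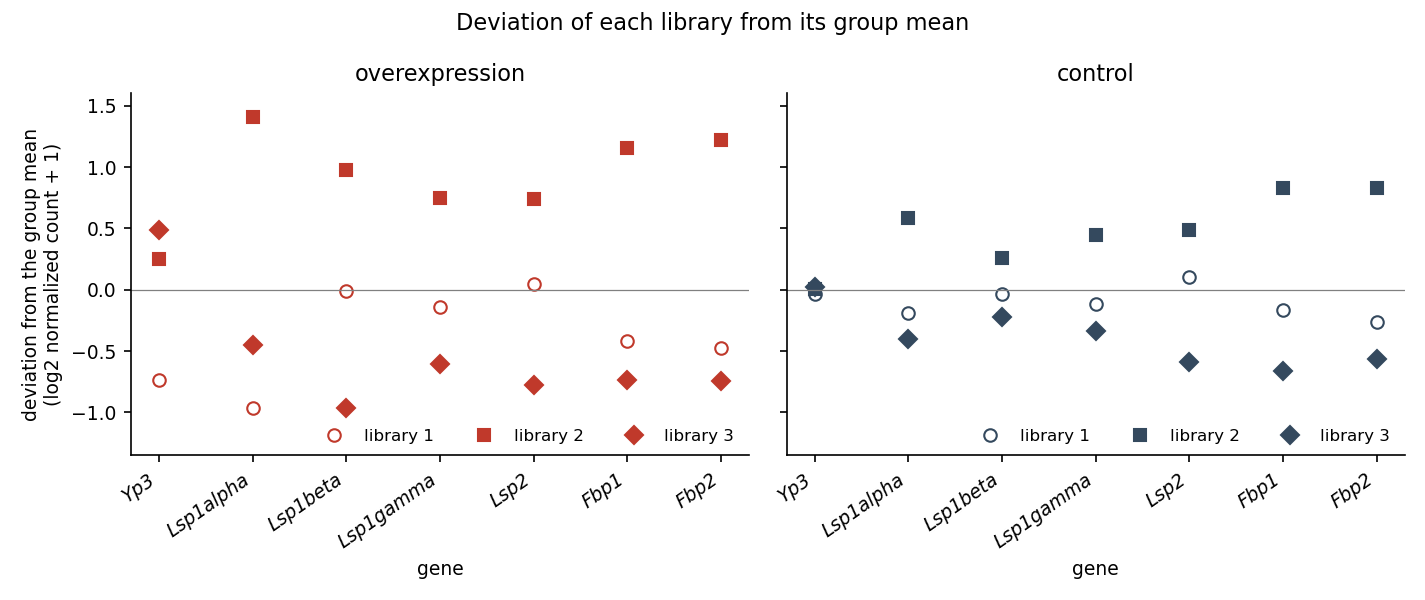
Deviation of each library from its group mean (log2 of normalized count + 1) for the 7 members tested, with overexpression libraries in the left panel and control libraries in the right. Library 2 (squares) is the highest in both panels for the 6 storage protein genes but not for Yp3.

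Because libraries differ in how much storage protein RNA they hold, ratios within a library show which genes differed most between the genotypes. Of the FPKM of the 3 larval serum protein 1 genes, Lsp1beta made up 70.4, 67.6 and 60.4% in the overexpression libraries, against 53.1, 47.7 and 53.5% in the control libraries. Lsp1gamma made up 26.4, 23.8 and 31.7% in the overexpression libraries, against 39.1, 42.4 and 38.7% in the control libraries. The groups overlapped for neither gene, with the beta share higher and the gamma share lower in overexpressing flies. Lsp1alpha made up 3.25, 8.60 and 7.90% in the overexpression libraries and 7.83, 9.89 and 7.80% in the control libraries, with overlap.

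The ratio of Fbp1 to Fbp2 FPKM was 0.684, 0.627 and 0.662 in the overexpression libraries, against 0.439, 0.411 and 0.384 in the control libraries (0.658 ± 0.0291 in overexpressing flies and 0.411 ± 0.0274 in control flies, SD, n = 3 each). The ratio varied little within a genotype although the level of each gene varied up to 3.94-fold there. Lsp2 relative to the larval serum protein 1 sum was 0.131 ± 0.0157 in overexpressing flies and 0.155 ± 0.0271 in control flies, with overlap. The ratio of Yp3 to Lsp1beta also overlapped, from 0.958 to 4.37 in overexpressing flies and from 1.52 to 2.15 in control flies.

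**Figure D3:**
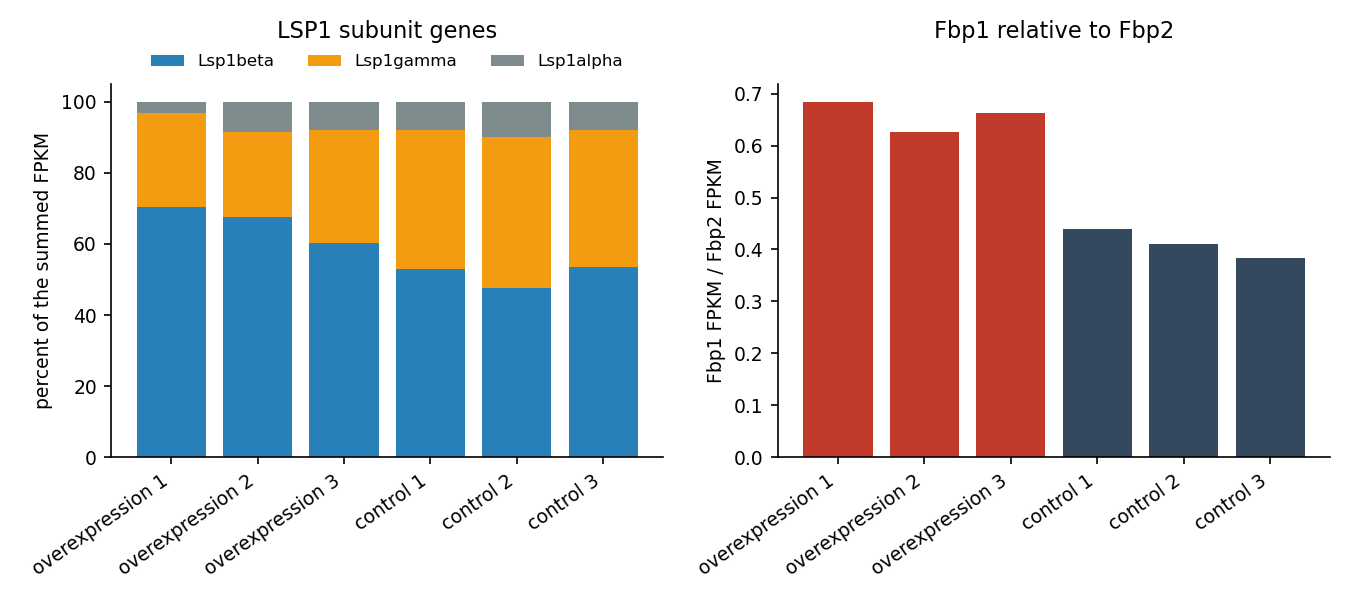
Shares of the 3 genes in the larval serum protein 1 FPKM of each library (percent) and the ratio of Fbp1 to Fbp2 FPKM, with overexpression libraries left of control libraries. The Lsp1beta share and the Fbp1 to Fbp2 ratio are higher in every overexpression library than in any control library, and the Lsp1gamma share is lower.

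Other genes of the fat body were lower too, by less. In a list of 18 fat body metabolism genes, which the members are not part of, 13 fell, 1 rose and 4 did not pass the test (limma, adjusted p under 0.05), and the median log2 fold change was -0.32. Without the intensity trend, limma called 2 of the 18 lower and 0 higher, with 14 lower and 1 higher at an unadjusted p under 0.05, while edgeR and DESeq2 each called 13 lower and 1 higher. Lsd-1, which encodes the lipid droplet coat protein perilipin 1, had 3078, 2137 and 2947 normalized counts in the overexpression libraries, against 4807, 3799 and 5057 in the control libraries (log2 fold change -0.75, SE 0.13, adjusted p = 0.00302 from limma). Lsd-2, the other perilipin gene, fell by 0.44 on the log2 scale (SE 0.052, adjusted p = 0.000261 from limma). Men, the gene of malic enzyme, which supplies NADPH for lipid synthesis, had 7859 ± 270 normalized counts in overexpressing flies and 11587 ± 831 in control flies (SD, n = 3 each; log2 fold change -0.56, SE 0.058, adjusted p = 0.000122 from limma).

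The gene that rose was Adh, alcohol dehydrogenase, to which Fbp2 is related. It had 147, 82.4 and 82.1 normalized counts in the overexpression libraries, against 36.6, 34.4 and 33.2 in the control libraries (log2 fold change 1.50, SE 0.23, adjusted p = 0.00179 from limma). The summed level of the 18 genes ran from 1510 to 1654 FPKM in overexpressing flies and from 1856 to 2077 FPKM in control flies, and none was at 0. The part of this difference in that of the storage protein genes was not tested. Relative to the mean of the list within each library, the log2 difference between overexpressing and control flies was -2.12 for Fbp2, -1.68 for Lsp1gamma and -0.95 for Yp3, each with no overlap. It was -1.57 for Lsp1alpha, -1.44 for Fbp1, -1.34 for Lsp2 and -0.76 for Lsp1beta, where the groups overlapped.

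**Figure D4:**
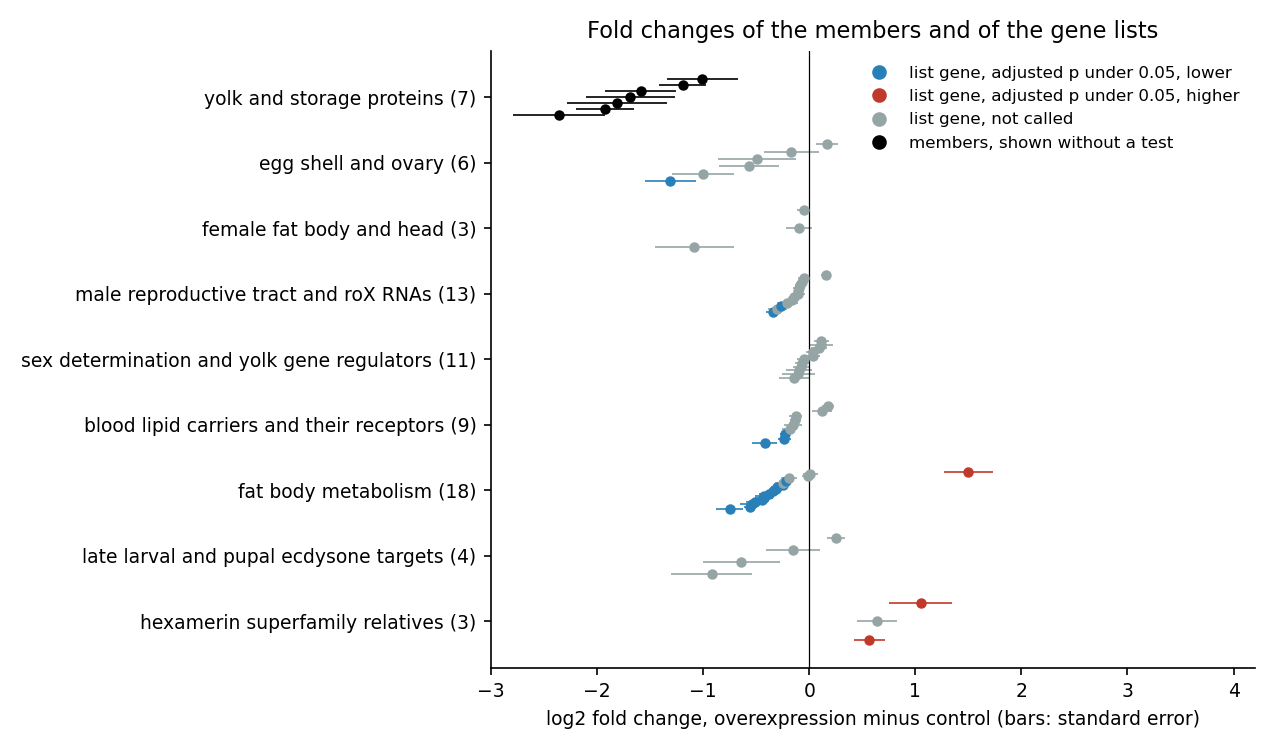
Log2 fold changes (overexpression minus control, with limma's SE) of the 7 members tested and of 8 lists of other genes. Members are drawn in black and without a test, and list genes are coloured by limma's call. Members lie between -2.36 and -1.01, below all 18 fat body metabolism genes and most genes of the other lists.

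Another list held 9 genes of blood lipid carriers, of their assembly and of their receptors. Of the 9, 3 fell and 0 rose: Rfabg, the gene of the main lipoprotein apolipophorin, by 0.42 on the log2 scale (SE 0.12, adjusted p = 0.0489 from limma, with overlap), cv-d, which encodes a vitellogenin-like lipoprotein, by 0.24 (SE 0.059, adjusted p = 0.0285 from limma) and LpR1, a lipophorin receptor gene, by 0.23 (SE 0.045, adjusted p = 0.00771 from limma). The prophenoloxidases, blood enzymes of melanization, are relatives of the hexamerins in sequence. Of their 3 genes 2 rose, PPO2 (log2 fold change 0.56, SE 0.15, adjusted p = 0.0327 from limma) and PPO3 (log2 fold change 1.05, SE 0.30, adjusted p = 0.0491 from limma). PPO1 stood at 218 ± 15.2 normalized counts in overexpressing flies and 144 ± 45.2 in control flies (SD, n = 3 each; adjusted p = 0.0579 from limma). For all 3 the overexpression libraries were above the control libraries without overlap, which was so for 12.9% of all genes tested. Without the intensity trend limma called 0 of the lipid carrier list, with 3 lower and 1 higher at an unadjusted p under 0.05, where edgeR and DESeq2 each called 2 lower. It then also called 0 of the prophenoloxidase genes, with 3 higher at an unadjusted p under 0.05, where edgeR called 1 higher and DESeq2 3.

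The tested regulators of the yolk protein genes did not show a called difference. Of 12 genes from the sex-determination pathway and the yolk gene enhancers, 11 were tested. For those limma called 0, with 0 at an unadjusted p under 0.05, and edgeR and DESeq2 also called 0. bbx was below the filter on low values. It had 29.9 ± 4.65 normalized counts in overexpressing flies and 17.3 ± 4.11 in control flies (SD, n = 3 each), with no overlap. dsx, which encodes Doublesex, had 1028, 876 and 1071 normalized counts in the overexpression libraries, against 1007, 1059 and 1057 in the control libraries (log2 fold change -0.07, SE 0.074, adjusted p = 0.609 from limma). Counts per gene do not separate the male from the female form of its transcript.

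Markers of female tissue were checked against the label of males. The 22 egg shell and ovary genes summed to 17.9 to 19.8 FPKM in overexpressing flies and 20.0 to 21.9 FPKM in control flies. Of the 22, 12 had a mean under 10 normalized counts and 0 were without reads. The most abundant was grk, with 307 ± 31.6 normalized counts in overexpressing flies and 273 ± 24 in control flies (SD, n = 3 each). Of the 6 genes tested, 1 fell: Cp7Fb, which encodes a chorion protein, with 18.4 ± 1.77 normalized counts in overexpressing flies and 47.2 ± 6.74 in control flies (SD, n = 3 each; log2 fold change -1.31, SE 0.24, adjusted p = 0.00493 from limma). A list of the female fat body and head held fit, Sxl and tra, of which Sxl and tra were also among the regulators above. As for dsx, counts per gene do not separate the forms of their transcripts, so only fit served as a marker here. Of these 3 genes, limma called 0, with 1 at an unadjusted p under 0.05, and edgeR and DESeq2 called 0. That gene was fit, a satiety signal of the fat body that is strongest in females, with 6.95, 10.2 and 10.4 normalized counts in the overexpression libraries, against 22.3, 27.9 and 13.3 in the control libraries (log2 fold change -1.08, SE 0.37, adjusted p = 0.0966 from limma). A list of 14 male genes, of accessory gland and testis genes and the dosage compensation RNAs roX1 and roX2, summed to 4374 to 4658 FPKM in overexpressing flies and 4786 to 4983 FPKM in control flies. Of the 13 tested, limma called 2 lower, the accessory gland genes Acp62F (log2 fold change -0.35, adjusted p = 0.00336) and Acp76A (log2 fold change -0.26, adjusted p = 0.0166). Without the intensity trend it called 0, with 3 lower and 1 higher at an unadjusted p under 0.05, while edgeR called 2 lower and DESeq2 3 lower and 1 higher. The part of these markers in the level of Yp3 was not tested.

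Other genes of the late larva and pupa, the stage at which storage proteins are normally made, mostly had few reads. Of 19 such ecdysone-responsive genes, 14 had a mean under 10 normalized counts, and only 4 were tested. For those limma called 0, with 1 higher and 1 lower at an unadjusted p under 0.05, and edgeR and DESeq2 called 0. The summed level ran from 79.0 to 93.8 FPKM in overexpressing flies and from 63.1 to 79.8 FPKM in control flies, most of it from ImpL2, an insulin-binding protein gene that adult tissues also express. ImpL2 was not called (adjusted p = 0.0956 from limma, log2 fold change 0.25).

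The members lie at 8 separate places on 3 chromosomes, with Yp1 and Yp2 adjacent. Of 18 different genes next to them, 13 were tested, 2 fell and 0 rose by limma. Cht6, a chitinase gene that ends 147 bases from Yp2, had 176, 153 and 143 normalized counts in the overexpression libraries, against 271, 272 and 218 in the control libraries (log2 fold change -0.68, SE 0.12, adjusted p = 0.00465 from limma). CG8100, 8624 bases from Fbp1, fell by 0.72 on the log2 scale (SE 0.18, adjusted p = 0.0254 from limma). The 11 others had log2 fold changes from -0.88 to 0.28 and were not called.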

How the data were processed

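Poly(A) RNA of whole infected males was sequenced in 3 libraries per genotype. The authors aligned reads with HISAT2 2.0.5, counted them per gene with featureCounts 1.5.0-p3 and compared genotypes with DESeq2, and the submitters' notes name the build dm6. Counting by strand and the handling of reads with several matches were not stated. The deposited signal of each library, although named FPKM, is read counts that the authors divided by 1 size factor per library. Whole reads were recovered for 100% of values (tolerance 0.01). The authors' own fold-change and p-value columns and their pooled means were not used. FPKM served for the filter on low values and for comparisons between genes, and the test was run on the normalized counts.

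From these values, log2(normalized count + 1) was compared with limma 3.58.1 (R 4.3.3; intensity trend, Benjamini-Hochberg adjustment over the 13196 genes that averaged 0.5 FPKM or more, computed from recovered reads and deposited gene lengths). This scale understates changes of genes with few reads. Replicates differed beyond sampling noise (chi-square 5.05 to 8.99 times its degrees of freedom). In simulated data on the 13196 genes, limma recovered 99% of 100 genes changed by log2 1 and 100% of 100 changed by log2 2, and 9.13% of its calls were unchanged genes. The changed genes were drawn from those with a mean of at least 50 normalized counts. The members varied more between libraries than most genes, so these shares need not hold for them. The members, and 8 lists of other genes, were chosen with earlier results of these data known. Named by rule were the members, called list genes with a mean of at least 10 normalized counts, the most abundant gene of each list, neighbours, dsx, the lncRNA, and for the most abundant gene of each family the 3 genes most like it (mean of at least 50 normalized counts); only some are printed. Some list genes were not analysed here. Alternatives were a pseudocount of 0.1, no filter or at least 5 FPKM, library-total scaling, quantile normalization, no intensity trend, a replicate block, edgeR 4.0.16, DESeq2 1.42.0 and each library left out. Leaving replicate 2 out of both groups was added after the data were seen.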

Additional observations from a re-analysis of the deposited data

How the results depend on the processing

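The 7 tested members were lower in overexpressing flies in every alternative that tested them (Lsp1alpha and Lsp2 were not tested at a minimum of 5 FPKM): log2 fold changes ran from -2.97 to -1.95 for Fbp2, -2.30 to -1.62 for Lsp1gamma, -2.52 to -1.33 for Lsp1alpha, -2.27 to -1.27 for Fbp1, -1.96 to -1.20 for Lsp2, -1.44 to -0.83 for Yp3 and -1.50 to -0.53 for Lsp1beta. Which of them limma called did depend on the processing. Without the intensity trend limma called 94 genes up, 99 down, 0 members (6 at an unadjusted p under 0.05; 5 called by edgeR and 4 by DESeq2), 3 list genes against 22 with it, and 2 of the fat body metabolism genes against 13. With reads scaled to the library total, 632 genes were called up and 503 down, so 55.7% of calls were up against 37.8%, while members called down stayed at 6. Without the trend the share was 48.7%. The cause was not tested.

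With 1 library left out at a time, calls ran from 201 to 393 up and from 328 to 618 down, members called down from 3 to 7 and list genes from 15 to 23. The lowest of these came without control replicate 1 (201 up, 328 down, 3 members, 15 list genes). Without control replicate 3 there were 235 up and 394 down, and without overexpression replicate 1 there were 279 up. A group then has 2 libraries, so fewer calls follow partly from the size. Members called down numbered 4 without overexpression replicate 1, overexpression replicate 3 or control replicate 2, where 519, 609 and 618 of all genes were called down. Members called up were 0 in each alternative. Lsp1beta was called without overexpression replicate 2 and without replicate 2 in both groups, a setting added once the values were known.

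Deviations from the group means correlated at 0.0455, 0.114 and 0.0182 for equal replicate numbers, and from -0.127 to 0.0942 for unequal ones. The labels do not say whether libraries of equal number share a batch, and these weak correlations do not settle it. With the replicate number as a block, 517 genes were called up and 846 down, with 7 members, Lsp1beta included. At a minimum of 5 FPKM, 5 members were tested and 4 were called, where 352 of all 8988 genes tested were called up and 609 down. Yp1 and Yp2 are limited by depth, with at most 7 reads a library.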

Other observations

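Over the 6 libraries, the genes whose pattern was most like that of Yp3 among 11090 genes searched were CG9518, CG32581 and CG9514, all on the X chromosome as Yp3 is. CG32581 had 125, 366 and 481 normalized counts in the overexpression libraries, against 721, 754 and 755 in the control libraries (log2 fold change -1.40, SE 0.34, adjusted p = 0.0247 from limma). CG9518 fell by 0.91 on the log2 scale (SE 0.24, adjusted p = 0.0346 from limma) and CG9514 by 0.58 (SE 0.14, adjusted p = 0.0206 from limma). They were ranked by Pearson r on the log2 scale, which was 0.99 for CG9518 and CG32581 and 0.989 for CG9514, and the points share their genotype difference, so the likeness carries no p.

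The genes most like Fbp2 were Sfp96F, a seminal fluid protein gene (r = 0.996), Atg8a, which encodes a core autophagy protein (r = 0.99), and CG32695 (r = 0.987). Their differences were far smaller than that of Fbp2: Atg8a had 7481 ± 216 normalized counts in overexpressing flies and 8050 ± 200 in control flies (SD, n = 3 each; log2 fold change -0.11, adjusted p = 0.209 from limma). Those most like Lsp1beta were CG9815, CG11413 and lawc (r from 0.979 to 0.992) and had adjusted p from 0.162 to 0.488 from limma.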
